A study of Mus musculus with 6 samples.

Results

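The genes described are 9 that mark red blood cells and their precursors, out of 55536 genes in a count matrix of mouse perichondrium, the connective tissue sheath of cartilage and bone. They were chosen by symbol: the adult globins Hba-a1, Hba-a2, Hbb-bs and Hbb-bt, the embryonic globin Hbb-y, the heme enzyme gene Alas2, the membrane protein gene Slc4a1 and the transcription factor genes Klf1 and Gata1. RNA sequencing covered 6 libraries of limb bone perichondrium at postnatal day 4. In 3 of them (mut-596, mut-597 and mut-795) the mice were Fbn1Scx-/-, with Fbn1 (fibrillin-1, the gene of Marfan syndrome) deleted by Cre recombinase under control of scleraxis, a gene of tendon and ligament cells. The other 3 (WT-596, WT-597 and WT-795) were wild type, and whether these carried Cre is not stated in the labels. The title of mut-596 ends in ScxCRE and those of mut-597 and mut-795 in Koscx, a difference that the titles do not explain. The labels do not say whether the libraries came from separate animals, so p-values reflect spread among libraries that may be partly technical. Wherever 3 values are given for a group, they follow the order in which its libraries are named here.

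Hemoglobin is built from a pair of alpha-type and a pair of beta-type chains, each holding a heme. In the mouse, red cells of the yolk sac use the embryonic genes Hbb-y, Hbb-bh1 and Hba-x, and cells made later in fetal liver and bone marrow use the adult genes. Reticulocytes, the youngest circulating red cells, have lost their nucleus but still hold globin mRNA, so tissue dissected with its blood can carry it. In bulk tissue, fewer cells of a type and less RNA per cell cannot be told apart.

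Promoters of adult globins, of the embryonic Hbb-y and of Alas2 are shown for a comparison of their letters, since these genes spanned the range of levels measured. Each is the 150 bases before the start of the gene in RefSeq (GRCm38.p6), 5′ to 3′ on the gene's strand, with matches on either strand to a CACCC box, a CCAAT box, the motif GATAA or the motif TATAA in capitals. CACCC is the core of the element that Klf1 binds, and GATAA a form of the Gata1 site.
Hba-a1: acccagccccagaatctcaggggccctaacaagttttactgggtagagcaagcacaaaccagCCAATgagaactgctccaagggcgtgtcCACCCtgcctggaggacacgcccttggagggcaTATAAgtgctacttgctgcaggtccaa
Hbb-bs: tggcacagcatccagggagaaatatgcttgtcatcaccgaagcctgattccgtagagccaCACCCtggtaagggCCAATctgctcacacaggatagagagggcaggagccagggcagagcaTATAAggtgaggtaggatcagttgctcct
Hbb-bt: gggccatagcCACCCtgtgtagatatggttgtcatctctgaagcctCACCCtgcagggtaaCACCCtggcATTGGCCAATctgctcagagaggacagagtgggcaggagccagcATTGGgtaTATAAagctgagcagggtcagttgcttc
Hbb-y: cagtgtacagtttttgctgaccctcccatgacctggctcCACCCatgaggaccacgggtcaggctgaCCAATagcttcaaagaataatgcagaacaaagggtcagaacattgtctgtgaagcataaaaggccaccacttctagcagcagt
Alas2: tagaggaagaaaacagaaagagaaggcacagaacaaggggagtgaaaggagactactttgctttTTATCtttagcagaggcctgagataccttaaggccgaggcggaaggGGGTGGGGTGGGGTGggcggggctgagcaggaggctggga
These windows are chr11:32283522-32283671 (plus strand) for Hba-a1, chr7:103827929-103828078 (minus) for Hbb-bs, chr7:103813924-103814073 (minus) for Hbb-bt, chr7:103853208-103853357 (minus) for Hbb-y and chrX:150547267-150547416 (plus) for Alas2. The GENCODE spans given below for these genes begin further upstream than the RefSeq starts, so each window overlaps the span of its gene. The windows of Hba-a1 and Hba-a2 share a run of 147 bases. All 4 adult globin windows held a CACCC box, a CCAAT box and the motif TATAA, a combination found in 1.1% of 32851 promoter windows of that length. Hbb-y held a CACCC box and a CCAAT box without a match to TATAA. Alas2 held 3 CACCC matches and 1 GATAA match, all on the reverse strand. Singly, CACCC was present in 37.4% of windows, CCAAT in 24.5%, TATAA in 14.2% and GATAA in 13.3%. These matches describe letters only.

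Total counts lay between 7209217 and 10316017 per library, and 15712 genes passed the filter on low counts. Levels are given as CPM, counts scaled to library size by TMM. Fbn1 stood at 10.04, 6.75 and 7.10 CPM in mut, against 119, 84.7 and 63.5 CPM in WT. It was the 1 gene past an adjusted p of 0.05 (log2 fold change -3.48, edgeR adjusted p 1.03e-04), or 0.00636% of genes tested. Xist, the RNA of the inactive X, reached 6221 counts in mut-596 and 4024 in mut-597, and no more than 4 elsewhere. Ddx3y of the Y chromosome had 0, 0 and 1641 counts in mut, against 1199, 842 and 1117 in WT, so sex was unequal between the groups. By these counts mut-795 differed in sex from mut-596 and mut-597, so the mut libraries did not all come from the same animal. Genes listed as markers of perichondrium and periosteum had a summed level of 26814 to 28823 CPM in mut and 28371 to 30196 CPM in WT libraries. That sum was mainly Col1a2 and Col1a1, at means of 16068 and 8190 CPM over all libraries. Runx2 and Dlx5 of the same list had means of 101 and 24.4 CPM.

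Of the 9 genes, 6 passed the filter and 3 (Hbb-y, Klf1 and Gata1) did not. None of the 6 passed the test of mut against WT: edgeR called 0 at an adjusted p of 0.05, as did DESeq2 and limma-voom. At an unadjusted p of 0.05 edgeR called 0 of the 6, against 10.5% of all genes tested (7.12% lower and 3.37% higher in mut). The estimates lay below 0 for 4 of the 6 (49.1% of all genes), with a median log2 fold change of -0.55 beside 0.01 over all genes. In 0 of the 6 did the ranges of the groups fall apart, against 11.9% of all genes. The spread within each group was wide, and WT-597 and mut-795 stood well above the rest.

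**Figure D1:**
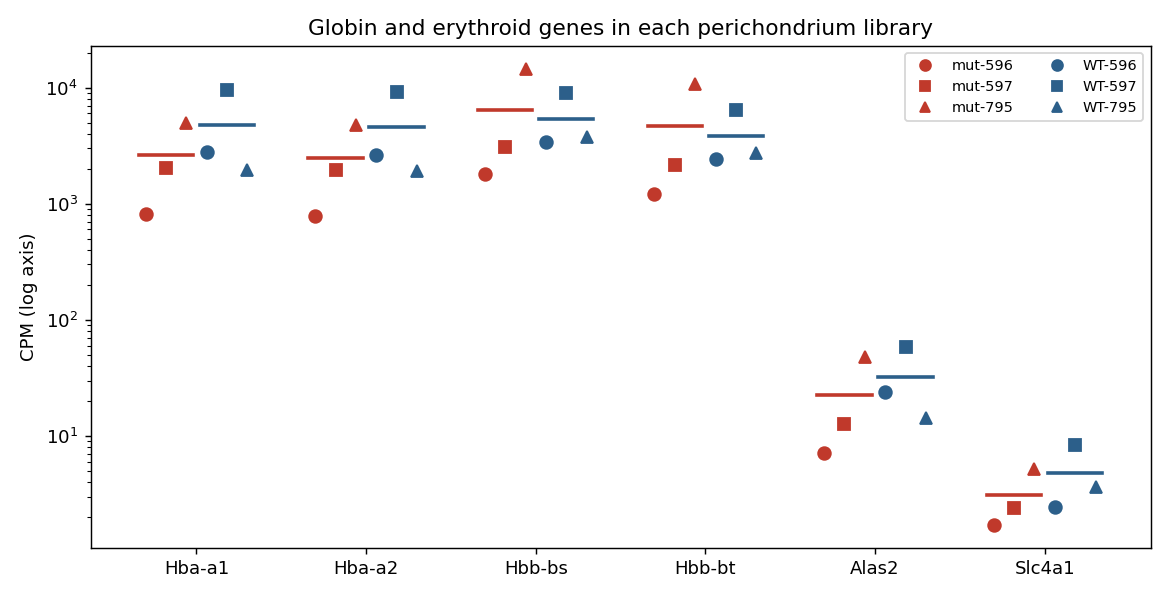
CPM on a log axis for the 6 genes that passed the filter, with 1 point per library, mut in red left of WT in blue, and the group mean as a line. In every gene WT-597 and mut-795 hold the 2 highest values and mut-596 the lowest.

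The alpha-globin genes lie on chromosome 11, Hba-a1 (ENSMUSG00000069919) at chr11:32283511-32284465 and Hba-a2 (ENSMUSG00000069917) at chr11:32296489-32297298, both on the plus strand. Hba-a1 had 816, 2028 and 4971 CPM in mut, against 2788, 9445 and 1969 CPM in WT. WT-597 was highest and mut-596 lowest, and the groups overlapped. The means were 2605 ± 2137 CPM in mut and 4734 ± 4100.3 CPM in WT (SD, n = 3 each). The log2 fold change was -0.86 (SE 0.59, 95% interval -2.13 to 0.41, edgeR adjusted p 0.539). An exact two-sided permutation test gave p = 0.5, where 3 against 3 can reach 0.1 at best. Without WT-597 the log2 fold change was 0.10, with a covariate for the libraries with Xist it was 0.070, and with a correction for GC content it was -0.46.

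Hba-a2 had 780.2, 1933 and 4778 CPM in mut, against 2649.8, 9142 and 1896 CPM in WT. The order of libraries was that of Hba-a1. Its log2 fold change was -0.87 (SE 0.60, 95% interval -2.15 to 0.41, edgeR adjusted p 0.538), with 0.11 without WT-597 and -0.48 with the GC correction. The ratio of Hba-a1 to Hba-a2 counts stayed between 1.03 and 1.05 in all 6 libraries. Of the 505 windows of 50 bases in the Hba-a2 transcript, 439 (86.9%) also occur in Hba-a1, so the counting may have split reads between them or counted them at both, and each copy's own level is uncertain.

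The adult beta-globin genes lie on the minus strand of chromosome 7, Hbb-bs (ENSMUSG00000052305) at chr7:103826534-103828096 and Hbb-bt (ENSMUSG00000073940) at chr7:103812524-103813996. Hbb-bs had 1806, 3049 and 14519.7 CPM in mut, against 3374, 8984 and 3744 CPM in WT. Here mut-795 was the highest library, above WT-597, and the other mut libraries were the 2 lowest. The means were 6458 ± 7009 CPM in mut and 5367 ± 3138 CPM in WT (SD, n = 3 each), so in mut the SD exceeded the mean. The log2 fold change was 0.27 (SE 0.60, 95% interval -1.02 to 1.56, edgeR adjusted p 0.852). Without mut-795 it was -1.15 (edgeR adjusted p 0.524), and with the Xist covariate 1.44 (edgeR adjusted p 0.930).

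Hbb-bt had 1224, 2168 and 10639 CPM in mut, against 2424, 6423 and 2734 CPM in WT. It followed Hbb-bs library by library. Its log2 fold change was 0.28 (SE 0.61, 95% interval -1.03 to 1.58, edgeR adjusted p 0.847), with -1.19 without mut-795 and 1.46 with the Xist covariate. The ratio of Hbb-bs to Hbb-bt counts lay between 1.36 and 1.48. The transcripts share 381 of the 579 windows of 50 bases in Hbb-bs (65.8%), so these copies are also uncertain singly.

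Summed, the 4 adult globins reached 4626, 9178 and 34908 CPM in mut, against 11235, 33995 and 10343 CPM in WT. That is 0.454%, 0.849% and 3.49% of all counts in the mut libraries, against 1.31%, 3.49% and 0.931% in the WT libraries. The 2 high libraries, 1 in each group, were nearly level in these sums, and the lowest and highest differed 7.55-fold. With Hba-a1 as the only alpha copy, the share was 3.01% in mut-795 and 2.55% in WT-597. The ratio of the group means, mut over WT, was 0.877. It was 0.373 without mut-795, and above 1 without WT-597 (1.505), without mut-596 (1.19) or without mut-597 (1.07). With the GC trend removed and all 6 libraries kept it was 1.04, so its direction was not stable.

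The balance of alpha to beta also differed among libraries. The ratio of summed alpha to summed beta CPM was 0.527, 0.759 and 0.387 in mut, against 0.938, 1.21 and 0.597 in WT. Alpha exceeded beta in WT-597 alone, and mut-597 lay above WT-795, so the groups overlapped. The mean ratio was 0.558 ± 0.188 in mut and 0.914 ± 0.306 in WT (SD, n = 3 each), and no test was made of this score. With each library's trend with GC content removed, the ratios were 0.610, 0.770 and 0.423 in mut, against 0.811, 1.04 and 0.626 in WT. The alpha genes are richer in GC (57.2% in Hba-a1 and 51.3% in Hbb-bs), and the trend correction brought the group means to 0.601 in mut and 0.825 in WT.

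**Figure D2:**
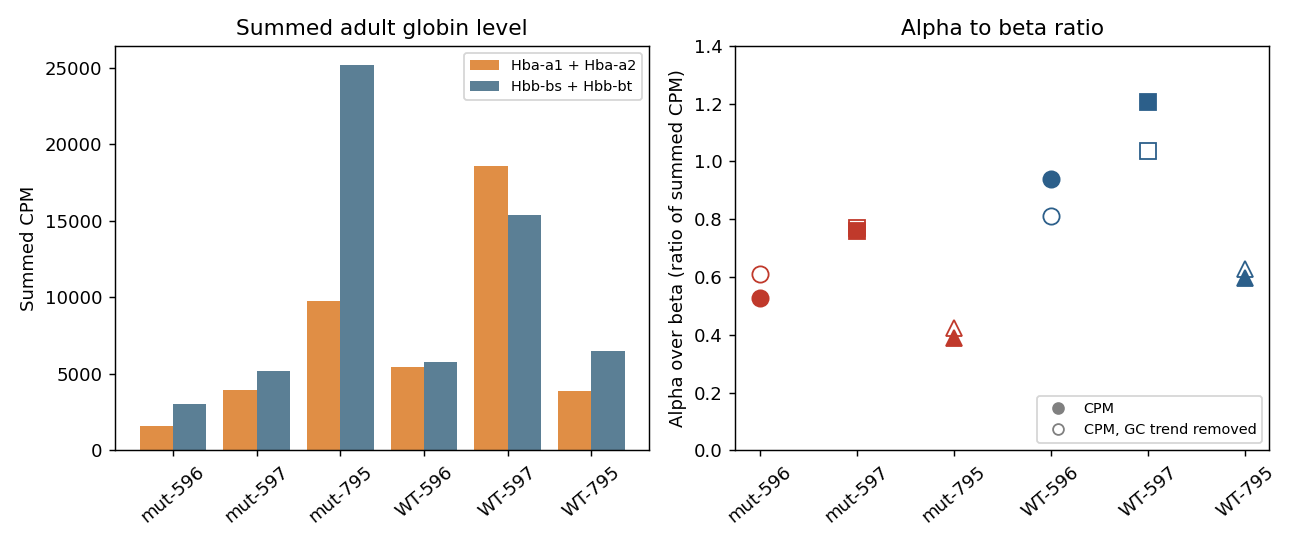
Left, summed CPM of the alpha (Hba-a1 and Hba-a2) and beta (Hbb-bs and Hbb-bt) adult globins in each library; right, the ratio of alpha to beta from CPM (filled) and with the GC trend removed (open), mut in red and WT in blue. The 2 libraries with the most globin, mut-795 and WT-597, lie at opposite ends of the ratio, 0.387 and 1.21.

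The embryonic globin Hbb-y (ENSMUSG00000052187, chr7:103851749-103853216, minus strand) was at the limit of detection. It had 0, 0 and 1 counts in mut, against 0 in each WT library. The adult beta genes had 573380 counts in all, so Hbb-y made up 0.000174% of beta-globin counts (95% exact Clopper-Pearson interval 4.42e-06% to 0.000972%). A count of 0 allows a share of up to 0.0131% in mut-596 and 0.00862% in mut-597, against 0.00492% in WT-596, 0.00184% in WT-597 and 0.00642% in WT-795. Hbb-y shares 0 of its 584 windows of 50 bases with the adult genes, counting exact matches only. No difference between the groups was detectable at this depth.

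The rest of the embryonic side was as low. Hbb-bh1, the other early beta-type gene, had 0, 1 and 1 counts in mut, against 0, 2 and 2 in WT. Hbb-bh2 had 3 counts in all, and Hbb-bh0, Hbb-bh3 and the embryonic alpha gene Hba-x had 0 in every library. The theta-type genes Hbq1a and Hbq1b, which neighbour the adult alpha genes, had 22 and 20 counts in all. Within the beta cluster, Hbb-y with 1 count and Hbb-bs with 332908 counts lie 25.1 kb apart.

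**Figure D3:**
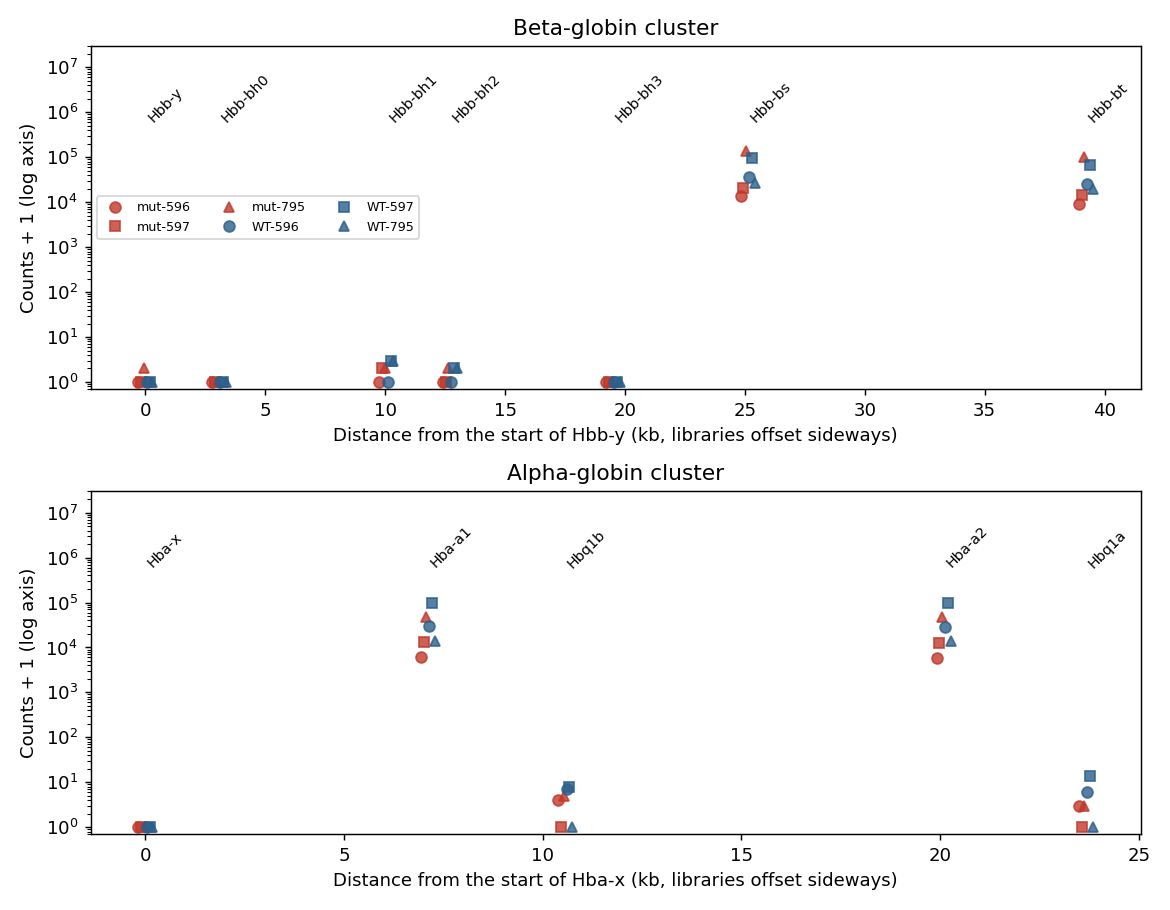
Counts plus 1 (log axis) of each globin gene against distance in kb from the first gene of its cluster, with 1 point per library, offset sideways, mut in red and WT in blue. The adult genes have 5908 counts or more in each library and every other gene of both clusters at 13 counts or fewer.

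Alas2 (ENSMUSG00000025270, chrX:150547375-150570638, plus strand) encodes the red cell form of the first enzyme of heme synthesis. It had 7.13, 12.6 and 47.8 CPM in mut, against 24.1, 58.5 and 14.3 CPM in WT. As for the globins, WT-597 and mut-795 were high and mut-596 was lowest. The log2 fold change was -0.51 (SE 0.57, 95% interval -1.72 to 0.70, edgeR adjusted p 0.689), with 0.21 without WT-597 and -0.28 with the GC correction. Per 1000 adult globin counts, Alas2 had 1.54, 1.37 and 1.37 counts in the mut libraries, against 2.15, 1.72 and 1.38 in the WT libraries, a far narrower range than its CPM. Alas2 is X-linked, and the 2 mut libraries with Xist had the lowest Alas2 and the lowest summed adult globin. With a covariate for those libraries, which leaves mut-795 alone against WT, the log2 fold change was 0.56 (edgeR adjusted p 0.930).

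Slc4a1 (ENSMUSG00000006574, chr11:102348824-102366203, minus strand) encodes band 3, the anion exchanger of the red cell membrane. It had 1.72, 2.40 and 5.25 CPM in mut, against 2.47, 8.30 and 3.60 CPM in WT. The same libraries were high, over a narrower range of 4.84-fold. The log2 fold change was -0.60 (SE 0.49, 95% interval -1.64 to 0.45, edgeR adjusted p 0.593), with 0.065 without WT-597 and -0.31 with the GC correction. It rests on 13 to 88 counts per library.

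Klf1 and Gata1 are the transcription factors that drive globin genes in nucleated precursors. Klf1 (ENSMUSG00000054191, chr8:84901928-84905291) had 1, 1 and 2 counts in mut, against 2, 1 and 5 in WT. Gata1 (ENSMUSG00000031162, chrX:7959260-7978071) had 0, 0 and 1 counts in mut, against 0, 0 and 1 in WT. WT-597, with the most alpha-globin, had 1 Klf1 count and no Gata1 count, and WT-795 had the most Klf1. Gata1 also serves platelet precursors, mast cells and eosinophils.

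Per kilobase of exon, the level in CPM per kb was highest for Hbb-bs in every library but WT-597, where Hba-a2 led. In mut-795 it was 18906 for Hbb-bs, 6122 for Hba-a1, 19.9 for Alas2, 1.07 for Slc4a1, 0.134 for Klf1 and 0.0422 for Gata1. In WT-597 the same levels were 11698 for Hbb-bs, 11632 for Hba-a1, 24.3 for Alas2, 1.70 for Slc4a1 and 0.0617 for Klf1. The order of adult globins, Alas2, Slc4a1 and Klf1 held in both.

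The variation of these genes was large for this dataset. Over the 6 libraries the SD of log2 level was 1.22 for Hba-a1 and for Hba-a2, 1.11 for Hbb-bs, 1.14 for Hbb-bt, 1.15 for Alas2 and 0.73 for Slc4a1, beside 0.35 for the median gene. All 6 had WT-597 and mut-795 as their 2 highest libraries, a pattern chosen after its values were seen and shared by 6.17% of all genes tested.

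Other erythroid genes came from 5 lists with 73 names, of which 70 were in the matrix and 43 passed the filter. edgeR called 0 of the 43 at an adjusted p of 0.05. At an unadjusted p of 0.05 it called 1, Tfrc, against 10.5% of all genes tested. Without WT-795, Tfrc and Zfpm1 passed the adjusted p, when 1517 of 16702 genes tested did. With the GC correction added neither passed. Zfpm1 did not pass the filter with all libraries kept, so it was not among the 43. Of the 43, 31 (72.1%) had a log2 fold change below 0, against 49.1% of all genes tested, and their median was -0.20. The 2 libraries high in globin were the 2 highest for 8 of the 43 (18.6%), against 6.17% of all genes tested.

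For heme synthesis and iron uptake, 0 of 15 genes tested were called and 11 lay below 0 (median -0.24). Tfrc, the transferrin receptor that brings iron into cells, had 48.3, 80.5 and 73.0 CPM in mut, against 24.9, 28.4 and 65.7 CPM in WT. Its groups overlapped through WT-795, and its log2 fold change was 0.77 (SE 0.33, edgeR adjusted p 0.460). Fech, the last enzyme of heme synthesis, had a log2 fold change of 0.17, and Tmem14c, a porphyrin carrier of mitochondria, of -0.13.

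For the red cell membrane and skeleton, 0 of 10 were called and 8 lay below 0 (median -0.18). Aqp1, a water channel also found in vessels, had 102, 121 and 113 CPM in mut, against 185, 158 and 122 CPM in WT. All its mut values lay below all its WT values, and its log2 fold change was -0.47 (SE 0.22, edgeR adjusted p 0.475). Epb41 and Tmod1, of the membrane skeleton, had log2 fold changes of -0.03 and -0.39.

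For transcription factors and erythropoietin signalling, 0 of 6 were called and 3 lay below 0 (median 0.04). Klf3, Sox6 and Ldb1, which other tissues also use, had log2 fold changes of 0.32, 0.16 and -0.23. For red cell enzymes and maturation, 0 of 12 were called and 9 lay below 0 (median -0.30). Prdx2, a peroxidase, Bnip3l, which clears mitochondria, and Mgst3 had log2 fold changes of -0.20, 0.30 and -0.35. Pklr had 0 counts in every library.

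**Figure D4:**
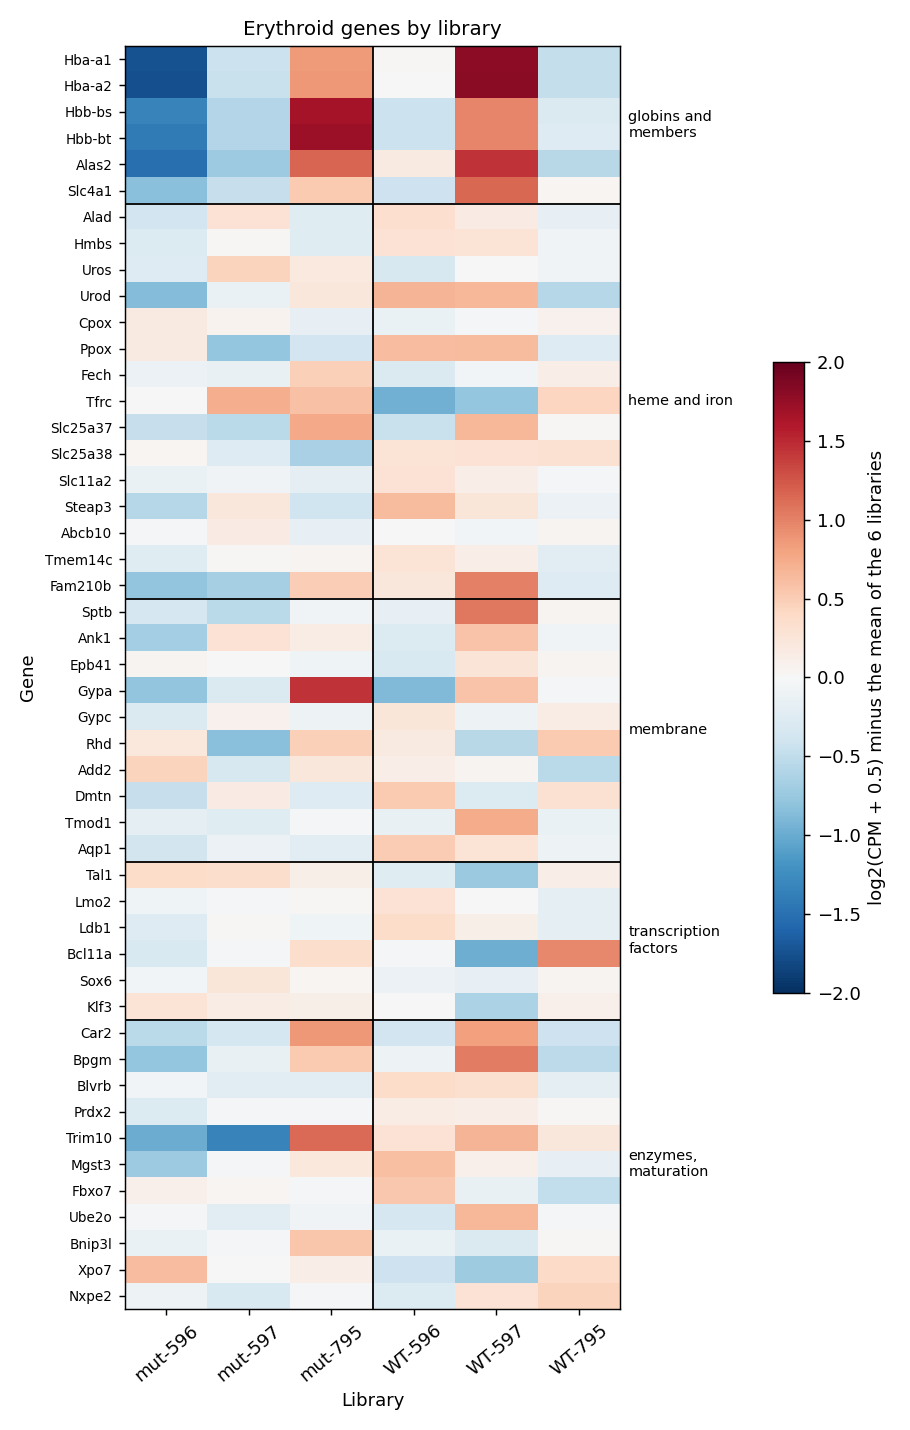
Level of the tested erythroid genes shown, in each library, as log2(CPM + 0.5) minus its mean over the 6 libraries, mut columns left of WT columns, with lists separated by lines. The globins and Alas2 run from deep blue in mut-596 to red in mut-795 and WT-597, while most genes of the other lists are pale.

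Subtracting the summed adult globins on the log2 scale showed which genes kept pace with them over the 6 libraries. The SD of the difference was 0.25 for Alas2 and 0.54 for Slc4a1, beside 1.18 for the median gene. Outside the lists, genes close to the globins by this measure included Isg20 (0.35), Apex2 (0.52), Gm5160 (0.55) and Cobl (0.58). Apex2 lies on the other strand at chrX:150519519-150589868, a span that contains Alas2. Of the 2403 exon bases of Alas2, 311 (12.9%) are also exon bases of Apex2, and without strand, reads from those bases cannot be assigned to either gene.

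Markers of other cells moved in part with the globins. The summed skeletal muscle level was 1554, 3459 and 3353 CPM in mut, against 3537, 8341 and 2344 CPM in WT, highest in WT-597 and lowest in mut-596 as for alpha-globin. In that sum mut-795 lay below mut-597 and WT-596, where for alpha-globin it lay above both. Of the 8 muscle genes tested, 8 had a log2 fold change below 0, against 49.1% of all genes tested. WT-597 and mut-795 were the 2 highest libraries for 1 of the 8, against 6.17% of all genes tested. Neutrophil markers were at 43.2, 25.2 and 76.1 CPM in mut, against 20.8, 36.7 and 23.6 CPM in WT, highest in mut-795, with 3 of 8 tested and 0 below 0. Platelet markers were at 53.4, 58.9 and 72.0 CPM in mut, against 83.3, 132 and 52.4 CPM in WT, with 4 of 13 tested and 4 below 0. Mast cell markers were at 115, 140 and 164 CPM in mut, against 305, 260 and 142 CPM in WT, with 8 of 10 tested and 6 below 0. Vessel endothelium stayed within 150 to 180 CPM in mut and 153 to 172 CPM in WT, with 4 of 6 genes tested below 0. Cartilage markers lay within 221 to 279 CPM in mut and 302 to 376 CPM in WT, with 3 of 6 below 0. Macrophage markers lay within 284 to 307 CPM in mut and 259 to 330 CPM in WT, with 6 of 11 below 0, so genes within these lists moved both ways. Eosinophil markers reached at most 0.72 CPM, with Prg2, Epx, Ear6 and Siglecf at 0 in all libraries, and liver plasma genes 2.85 CPM, with Ttr and Ahsg at 0. The part of these cells in the globin levels was not tested.

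The authors' deposited table, named as a list of differentially expressed genes, lists 1643 genes and holds 0 of the 9 genes described. Of 15712 genes tested here, edgeR called 1 at an adjusted p of 0.05 and 1648 at an unadjusted p of 0.05. A gene missing from the authors' deposited table may have been measured and not selected. Of the 73 other erythroid names the authors' deposited table holds 3. Their log2 fold changes in the authors' deposited table are -0.49 for Aqp1, 0.76 for Tfrc and -2.04 for Zfpm1, a partner of Gata1. These counts were not tested against the share of all genes in that table.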

How the data were processed

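Perichondrium RNA was purified on micro columns and amplified as full-length cDNA before transposase tagging, per the labels' protocols. That chemistry amplifies by PCR, carries no molecular identifiers and is not stranded. The deposited file holds raw counts for each gene as whole numbers, taken from coordinate-sorted alignments per the file headers. Per the submitters' processing notes, the authors used build GRCm38.p6 and DESeq2. How reads with several matches were counted is not given in the sources used. The aligner is not stated either, though the letters star in the header of the authors' fold changes may name it. The authors' deposited table lists log2 fold changes, with the log base judged from the values.

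Counts were tested with edgeR 4.0.16 in R 4.3.3 (glmQLFit and glmQLFTest, TMM scaling, filterByExpr by group with a minimum count of 10), two-sided, with Benjamini-Hochberg adjustment over the 15712 genes that passed and a threshold of 0.05. The standard error was the size of the log2 fold change over the square root of F. CPM values are TMM-scaled. SDs and exact permutation tests on a log scale used log2(CPM + 0.5). Total counts lay between 7209217 and 10316017 per library. The 95% intervals of log2 fold changes used that standard error and the t distribution, so they reflect spread among libraries. Intervals of the Hbb-y share are exact Clopper-Pearson at 95%, and a count of 0 allows up to 3 counts. The share intervals and this limit for a count of 0 cover counting error only. The procedure was tested on simulated data with the same dispersion for every gene. The genes described here varied more than that, so the simulation does not show how the test performs on them. Symbols, positions and exon lengths came from GENCODE M21, where 55450 identifiers had a symbol, and promoters from RefSeq.

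Groups and replicate numbers came from the titles. The 9 members, the gene lists and the tests were chosen with earlier results of these data known. Named were all members, the 3 genes of highest mean CPM in each erythroid list, genes at 0 in every library and the 5 genes outside the lists whose log2 CPM followed the summed adult globins most closely, among genes whose mean log2 CPM was 2 or more. Values of some genes under this rule and in the lists are not reported here. Alternatives were RLE and upper-quartile scaling, other filters, DESeq2 1.42.0, limma-voom (limma 3.58.1), a replicate block, a correction for GC content, other library sizes, a covariate for libraries with Xist, summed gene copies and each library left out. The GC correction of the globin sums, the globin ratio without single libraries, and the GC correction with single libraries left out were added after seeing the data.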

Additional observations from a re-analysis of the deposited data

How the results depend on the processing

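None of the 6 genes tested was called under any alternative: 0 of the member values passed an adjusted p of 0.05. Of 70 values under other settings 62 kept their direction, as did 30 of 36 without 1 library. The exceptions follow, and the cause was not tested. Hbb-bs and Hbb-bt were -0.18 and -0.21 by limma-voom, and -0.25 and -0.29 with the replicate block. What the shared numbers mean is not explained in the labels. Deviations of same-numbered libraries correlated at -0.18, 0.26 and -0.20, but 3 libraries per group cannot settle whether the numbers pair them. The block left the number of genes called at 1. With the covariate for libraries with Xist, Hba-a1 and Hba-a2 were 0.070 and 0.067, Alas2 0.56 and Slc4a1 0.12, Hbb-bs and Hbb-bt were 1.44 and 1.46, the highest of their alternatives, and edgeR called 0 genes (490 at an unadjusted p of 0.05). With the GC correction, Hba-a1 was -0.46, Hba-a2 -0.48, Hbb-bs 0.38, Hbb-bt 0.36, Alas2 -0.28 and Slc4a1 -0.31, and the ratio of summed adult globin, mut over WT, was 1.04 in place of 0.877.

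Without single libraries, log2 fold changes ran from -1.74 to 0.10 for Hba-a1, -1.76 to 0.11 for Hba-a2, -1.15 to 0.84 for Hbb-bs, -1.19 to 0.84 for Hbb-bt, -1.73 to 0.21 for Alas2 and -1.24 to 0.065 for Slc4a1, each lowest without mut-795 and highest without WT-597. An alternative chosen after seeing the data combined the GC correction with leaving out single libraries, and 28 of its 36 member values kept their direction. Alas2 was then 0.14 without mut-596 and 0.026 without mut-597. Without mut-795, Hbb-bs was -1.03 and Hbb-bt -1.10. Without WT-597, Hba-a1 was 0.37, Hba-a2 0.36, Alas2 0.37 and Slc4a1 0.25.

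The number of genes called was 1 with all libraries, 270 without a filter and 4 by DESeq2. Without single libraries it ran from 1 to 1517, the highest without WT-795, and the number of other erythroid genes called ran from 0 to 2, the 2 being Zfpm1 and Tfrc without WT-795. With the GC correction it was 14 without mut-795, 4 without WT-596 and 163 without WT-795, where 0 other erythroid genes were called. Without a filter the standard error of Hba-a1 was 0.27 and its edgeR adjusted p 0.110, the lowest for any member being 0.103 for Hba-a2. The embryonic share of beta-globin counts was 0.00122% with Hbb-bh1 included, and from 0 to 0.000244% without single libraries. Adding Hbb-b1 and Hbb-b2 was not run, as neither symbol matched. Depth limits Hbb-y, Klf1 and Gata1, which have at most 5 counts in any library.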

Other observations

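The pseudogene Hba-ps4, on chromosome 17 and named after its values were seen, had 4, 7 and 31 counts in the mut libraries, against 18, 115 and 9 counts in the WT libraries, in the order used above. WT-597 and mut-795 were its 2 highest libraries and mut-596 its lowest, as for the alpha-globin genes. Its log2 fold change was -1.49 (SE 0.74, edgeR adjusted p 0.475), and it stands at -1.51 in the authors' deposited table. It shares 0 of its 398 windows of 50 bases with Hba-a1 or Hba-a2, counting exact matches only. Whether alpha-globin reads with mismatches were counted at Hba-ps4 was not tested.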
